A study of Mus musculus with 6 samples.

Results

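The 83 ribosomal protein genes of the mouse and 59 of their pseudogenes were followed in bone marrow mesenchymal stem cells, 142 genes of 54532 in all. The coding genes were those annotated as protein-coding whose symbols carry the Rpl or Rps stem and a subunit number, including Rplp0, Rplp1, Rplp2, Rpsa and the numbered paralogs. The pseudogenes were those with an Rpl or Rps symbol ending in -ps, and they were chosen by their summed raw counts, which had to reach 100 over the 6 libraries. Of 290 such pseudogenes, 134 had no count, 97 had from 1 to 99 counts, and 59 were kept. Just inside the limit lay Rpl3-ps2, Rpl10-ps6 and Rpl15-ps3 with 100, 107 and 108 counts, and just outside lay Rps19-ps7, Rpl35a-ps3 and Rps12-ps9 with 96, 91 and 89. The 59 held 99.2% of the counts of all 290. Near-identical copies with other symbols, such as the protein-coding Gm11361, were not members by name.

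All 6 libraries came from wild type primary mouse cells (mBMSCs, adherent marrow cells that can form bone) kept for 7 days in osteogenic medium with dexamethasone, ascorbic acid and β-glycerophosphate. Con was this medium alone (3 libraries) and Ni was the same medium with nickel ions at 0.1 μM, given as NiCl2 (3 libraries), each described as an independent biological replicate. The mice's age, sex and strain are not given in the labels. Primary marrow cultures can hold other adherent cells. All 16 macrophage markers examined were detected in every library and together took 2.96% to 3.45% of the counts in Con and 2.92% to 2.97% in Ni. The 14 stromal and osteoblast markers took 1.76% to 3.06% in Con and 3.41% to 4.31% in Ni, and 12 markers of other cells took 0.00793% to 0.0102% in Con and 0.00772% to 0.00813% in Ni. Of these 12, Cd3e, S100a9, Hbb-bs and Hba-a1 were at 0 throughout, while the endothelial marker Pecam1 had 426 to 861 counts and the adipocyte marker Adipoq 519 to 761. Gene by gene, 12 of the 16 macrophage markers were lower in Ni and 4 higher, with a median log2 fold change of -0.20. Of the 14 stromal and osteoblast markers 11 were higher and 3 lower, with a median of 0.50. Over all genes tested 48.1% were higher. In such bulk RNA fewer cells of a type and less RNA per cell cannot be told apart. The part of the cell mixture in the results below was not tested.

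Totals ran from 16101033 to 18642504 counts per library. Con replicate 3 was closer to the Ni libraries (mean distance 0.0131, 1 minus Pearson's r of log2 CPM over all genes tested) than to the other controls (0.0220). Results that rest on this library are therefore given with and without it. Levels are in CPM, counts scaled to library size by TMM, unless FPKM is named, and each group value is a mean ± SD with n = 3. Fold changes are log2 of Ni over Con with their standard error (SE), from edgeR's quasi-likelihood test over 14624 genes, adjusted by the Benjamini-Hochberg method.

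Ribosomal proteins are the protein part of the ribosome. Those named Rps belong to the small subunit, which decodes the mRNA, and those named Rpl to the large subunit, which joins the amino acids. Their mRNAs are among the most abundant of growing cells and carry a run of pyrimidines at the 5′ end (the TOP motif) through which the mTOR pathway controls their translation. Because these mRNAs are short and abundant, the genome holds many processed pseudogenes, intronless copies made by reverse transcription. Most such copies are not known to make a protein.

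How alike the copies are bears on every count below. All 59 pseudogenes had a parent among the 83 genes. They lay on 20 chromosomes and came from 38 parents. Their identity to the parent's coding sequence had a median of 99.4%, with Rpl36a-ps3 lowest at 87.4%. No difference was found in 9 of them, 33 had 1 to 5, and 17 had more. Over every stretch of 100 bases, the median pseudogene shared 73.8% of its stretches exactly with a transcript of another gene. For the coding genes the median was 41.4%, and 9 of them shared no stretch. The counting tool and its treatment of reads that match several genes are not given in the sources used here, so counts on a parent and on its copies are uncertain as to their origin.

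The following pairs are shown because the counts of these families lay mostly on the copies. Each line is 90 bases of the coding sense strand, 5′ to 3′, from GENCODE M21 transcripts (GRCm38), with the bases that differ within the pair in capitals. Positions are counted from 1 at the A of the parent's start codon. Bases 136 to 225 of the Rps18 coding sequence are set against Rps18-ps3 (chr8:107263024-107263113, minus strand), which differs by G181C here and by A337C and C430T elsewhere.
Rps18: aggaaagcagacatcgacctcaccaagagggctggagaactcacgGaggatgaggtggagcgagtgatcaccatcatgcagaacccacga
Rps18-ps3: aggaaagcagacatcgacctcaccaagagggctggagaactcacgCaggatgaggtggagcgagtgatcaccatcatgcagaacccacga

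Bases 27 to 116 of Rps2 are set against Rps2-ps13 (chrX:52898614-52898703, plus strand), which differs by T60A and A84G here and by 7 bases over the 879 bases of the coding sequence.
Rps2: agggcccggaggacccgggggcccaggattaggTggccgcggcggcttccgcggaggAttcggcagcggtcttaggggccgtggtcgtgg
Rps2-ps13: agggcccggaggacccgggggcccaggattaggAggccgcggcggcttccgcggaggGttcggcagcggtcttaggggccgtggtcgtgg

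Bases 87 to 176 of Rpl34 are set against Rpl34-ps1 (chr6:71124696-71124785, plus strand), whose only differences are T132C, shown, and C318G.
Rpl34: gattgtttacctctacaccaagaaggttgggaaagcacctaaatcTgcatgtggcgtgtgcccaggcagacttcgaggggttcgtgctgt
Rpl34-ps1: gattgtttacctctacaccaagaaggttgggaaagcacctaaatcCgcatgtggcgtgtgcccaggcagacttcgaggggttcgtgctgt

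Bases 388 to 477 of Rps10 are set against Rps10-ps2 (chr16:20822164-20822253, minus strand), and hold all 5 differences of this pair: T393C, T408C, C437G, A438G and G473A.
Rps10: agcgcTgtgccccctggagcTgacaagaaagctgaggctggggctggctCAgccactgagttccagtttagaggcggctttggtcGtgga
Rps10-ps2: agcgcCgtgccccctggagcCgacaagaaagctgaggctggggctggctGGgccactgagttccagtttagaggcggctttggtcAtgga

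The bases around the start sites of the coding genes were searched for runs of pyrimidines. Such a run can lie upstream of the mRNA, so the counts are not counts of TOP motifs. Of the 83 genes, 63 had an entry in the RefSeq promoter table (GRCm38.p6). An unbroken stretch of 8 or more bases that are all C or T, on the transcribed strand and within 30 bases either side of the annotated start, was found in 35 of the 63, or 55.6%, against 25.8% of all 27025 genes with an entry. The 3 genes of highest CPM that hold one are shown with the stretch in capitals, the start being at the middle of each line. They are Rpl4 (chr9:64173357-64173416), Rps9 (chr7:3704011-3704070) and Rpl13 (chr8:123102320-123102379), all on the plus strand. In Rpl4 and Rpl13 the stretch lies wholly upstream of the annotated start.
Rpl4: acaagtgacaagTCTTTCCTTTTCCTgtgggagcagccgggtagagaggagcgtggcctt
Rps9: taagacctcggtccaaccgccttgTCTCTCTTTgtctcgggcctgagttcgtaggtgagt
Rpl13: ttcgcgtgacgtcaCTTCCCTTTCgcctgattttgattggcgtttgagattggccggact

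As a class, the ribosomal protein genes took a slightly smaller share of the RNA in Ni than in Con. The 83 genes held 3.00%, 3.37% and 3.00% of the counts in the Con libraries and 2.91%, 2.91% and 2.79% in the Ni libraries, a mean of 3.12% ± 0.212 against 2.87% ± 0.0677. Every Ni library lay below every Con library, and the highest Con library, replicate 2, stood further from the other controls than they did from Ni. The difference of -0.249 percentage points between the group means was -0.127 without that library. The 59 pseudogenes held 0.216%, 0.242% and 0.216% in Con and 0.216%, 0.217% and 0.198% in Ni, and the groups overlapped. For each 100 counts on the coding genes there were 7.19, 7.17 and 7.20 on the pseudogenes in Con and 7.41, 7.45 and 7.09 in Ni, again overlapping. The difference in means of 0.130 was 0.242 without Ni replicate 3 and 0.0615 without Ni replicate 2. Counts were concentrated within each class. The 10 largest coding genes held 32.5% of the coding counts, and the 3 largest pseudogenes held 39.1% of the pseudogene counts.

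No member passed an adjusted p of 0.05, nor did any of the 14624 genes tested, of which the share called was 0.0%. The smallest adjusted p was 0.295 among the coding genes and 0.185 among the pseudogenes (edgeR's quasi-likelihood test). At an unadjusted p under 0.05, 8 of the 81 coding genes tested were lower in Ni and 0 were higher, where 5.83% of all genes tested were lower and 7.59% higher. Of the 59 pseudogenes, all of them tested, 9 were lower and 3 higher. Rpl3l, at 0 to 4 counts per library, and Rpl10l, with no count, did not pass the filter on low counts. With the DESeq2 Wald test 3 pseudogenes and 0 coding genes passed an adjusted p of 0.05, where 1.02% of 25876 genes did. At an unadjusted p under 0.05 there were 10 coding genes and 11 pseudogenes, where 7.81% of the 25876 passed. No filter on low counts was set for this test, so its background includes low-count genes that the 14624 leave out.

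Negative fold changes outnumbered positive ones in both classes. For the coding genes 65 values were negative and 16 positive, and their median log2 fold change was -0.11. For the pseudogenes 38 were negative and 21 positive, and their median was -0.16. Without Con replicate 2 the medians were -0.048 for the coding genes and -0.025 for the pseudogenes. With the trend on the authors' gene lengths removed, a correction added after seeing the data, the pseudogene median was -0.035. Over all genes tested the median was -0.0099 and 48.1% were positive. The pseudogenes were the more scattered class, with a median absolute log2 fold change of 0.27 against 0.13 for the coding genes and 0.16 for all genes. They were also the lower in level, with a median CPM of 7.07 against 311 for the coding genes. The part of level in the scatter was not tested. Ni lay wholly below Con for 12 coding genes and wholly above for 0, and for 9 and 3 pseudogenes, where 6.71% of all genes lay wholly below and 7.97% wholly above.

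**Figure D1:**
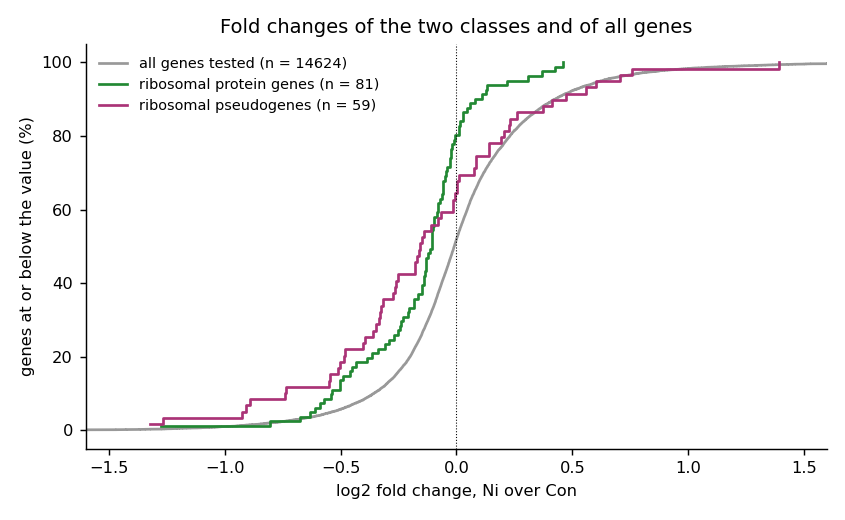
Cumulative share of genes (vertical axis, percent) at or below each log2 fold change of Ni over Con (horizontal axis) for 81 ribosomal protein genes, 59 ribosomal pseudogenes and all 14624 genes tested, with values beyond 1.6 in either direction not drawn. The coding genes cross 0 at about 80% of their number because 65 of 81 were negative, and the pseudogene line is the wider of the pair.

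Con replicate 3 weighed on the calls. Without it, 9 coding genes and 8 pseudogenes passed an adjusted p of 0.05 (edgeR's quasi-likelihood test), while 6.49% of all genes tested were then called lower and 8.69% higher. Of the 9, Rps12, Rps26, Rpl35, Rpl31, Rps15a, Rpl23, Rpl22 and Rps13 were lower and Rpl39l was higher. Of the 8, Rps18-ps3 and Rps2-ps13 were higher and 6 were lower, among them Rpl34-ps1, Rps26-ps1, Rpl14-ps1, Rpl21-ps15 and Rps24-ps3. Without Con replicate 2, the control with the highest ribosomal share, 4 coding genes and 7 pseudogenes were at an unadjusted p under 0.05, as were 5.79% of all genes. Without Ni replicate 2 there were 24 and 16, beside 16.3% of all genes, and Rps18-ps3 passed an adjusted p of 0.05, where 0.08% of all genes were called higher and 0.00666% lower.

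The stalk proteins Rplp0, Rplp1 and Rplp2, which draw elongation factors to the large subunit, did not pass the test. Rplp1 had the highest FPKM of all 83 genes, a mean of 2578, against 616 for Rplp0 and 138 for Rplp2. FPKM rests on the authors' gene lengths, which were 499, 1659 and 2072 bases for Rplp1, Rplp0 and Rplp2. The transcripts used here for sequence had 499, 1358 and 421 bases, so the FPKM gap between Rplp0 and Rplp2 depends on the length used. Rplp1 read 1294, 1457 and 1222 CPM in Con and 1320, 1272 and 1209 CPM in Ni, and Rplp0 read 924, 1055 and 1046 CPM in Con and 1059, 1064 and 1027 CPM in Ni. The groups overlapped for Rplp1 and Rplp0 alike, with log2 fold changes of -0.06 and 0.06. Of the 10 coding genes of highest CPM (Rplp1, Rpsa, Rplp0, Rpl10, Rpl4, Rps9, Rpl13, Rpl6, Rpl7 and Rpl3), none passed an unadjusted p of 0.05. Their log2 fold changes ran from -0.23 for Rps9 to 0.06 for Rplp0.

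Among small subunit genes, Rps26, whose protein lines the channel through which mRNA leaves the ribosome, read 352, 471 and 358 CPM in Con and 262, 331 and 248 CPM in Ni. Every Ni library was below every control, with a log2 fold change of -0.49 (SE 0.15, adjusted p = 0.295). Rps12 read 453, 518 and 341 CPM in Con and 339, 267 and 321 CPM in Ni. Its groups were separated by little, since Con replicate 3 lay just above Ni replicate 1, and its log2 fold change was -0.50 (SE 0.16). Rps15a had means of 344 ± 29.9 and 278 ± 4.14 CPM (log2 fold change -0.31). Rps25, which some viral internal ribosome entry sites require, had means of 438 ± 45.5 and 364 ± 31.3 CPM (log2 fold change -0.27).

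Among large subunit genes, Rpl35, which lies by the exit of the peptide tunnel, read 292, 340 and 280 CPM in Con and 225, 259 and 224 CPM in Ni. Rpl31, also by the tunnel exit, read 325, 390 and 345 CPM in Con and 275, 292 and 271 CPM in Ni. The groups did not overlap for either gene, and the log2 fold changes were -0.36 (SE 0.11) and -0.34 (SE 0.11). Rpl23 had means of 440 ± 26.2 and 359 ± 16.6 CPM (log2 fold change -0.29), and Rpl22 of 241 ± 23.0 and 204 ± 4.26 CPM (log2 fold change -0.24). Rps23, Rpl32 and Rpl34 were also among the 12 coding genes whose groups did not overlap.

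**Figure D2:**
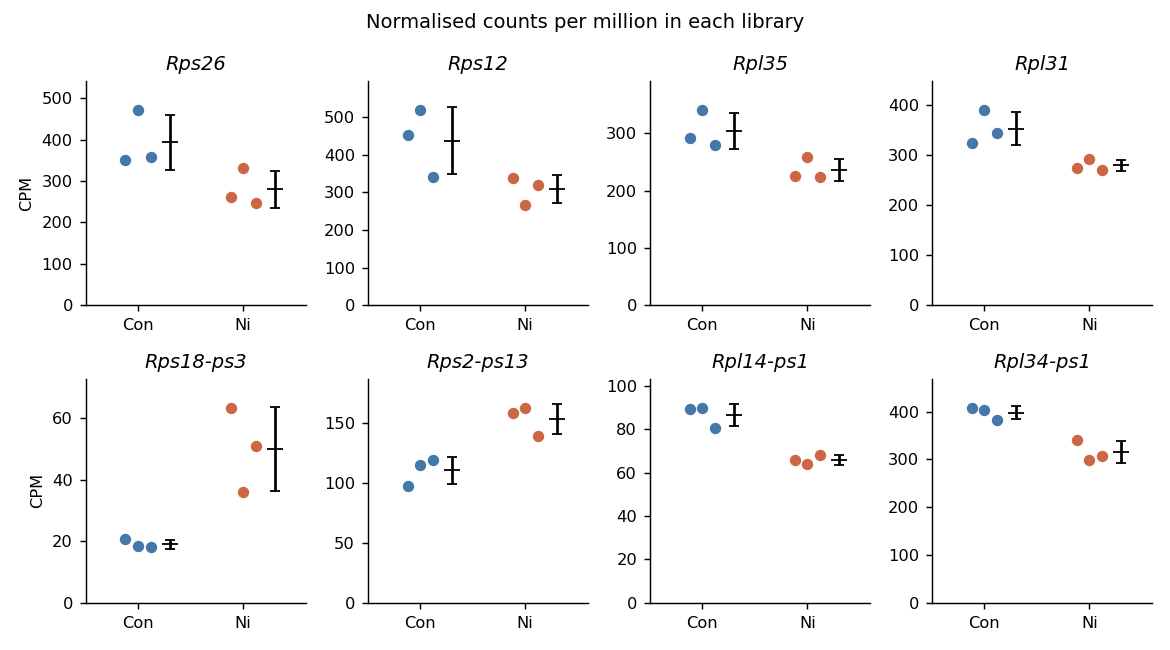
CPM (vertical axes, each from 0) in each of the 3 Con and 3 Ni libraries (points) for 4 coding genes and 4 pseudogenes, with the mean and SD at the right of each group. Rps26, Rps12, Rpl35, Rpl31, Rpl14-ps1 and Rpl34-ps1 sit lower in every Ni library than in any Con library, and Rps18-ps3 and Rps2-ps13 sit higher.

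The largest decreases in fitted value belonged to genes whose groups overlapped. Rpl29, at 3 to 23 counts per library, had the lowest log2 fold change, -1.27 (SE 0.65). Next came Rpl38, a gene known for its part in patterning the axial skeleton in mice, which read 52.5, 93.4 and 69.2 CPM in Con and 25.5, 69.4 and 28.3 CPM in Ni (log2 fold change -0.80, SE 0.44). Ni replicate 2 was as high as Con replicate 3, while the other Ni libraries were below every control. Rpl36 (-0.67), Rpl37 (-0.63) and Rpl37a (-0.61) followed, with the same libraries high and low. At the upper end stood Rpl7a (log2 fold change 0.46), Rpl39l (0.43), Rpl35a (0.37), Rps10 (0.31) and Rpl21 (0.22), none at an unadjusted p under 0.05. The value for Rpl7a came from Ni replicate 1 at 232 CPM against 65.2 to 122 CPM in the other 5 libraries, and it was -0.22 without that library. Rpl21 turned to -0.35 and Rpl35a to -0.011 without Ni replicate 2. Rps27a, made as a fusion with ubiquitin, was at 230 CPM in Con replicate 2 and 146 CPM in Ni replicate 2 against 465 to 510 CPM in the other 4 libraries.

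Fold change moved with the length of the coding sequence. The coding sequences ran from 138 bases to 1257, with a median of 453. The 11 genes under 300 bases (Rpl41, Rpl37a, Rpl39, Rps27, Rpl37, Rps29, Rps27l, Rps21, Rpl38, Rps28 and Rpl39l) had a median log2 fold change of -0.54 and 10 of them were negative. The median was -0.25 for the 18 genes from 300 to 399 bases, -0.12 for 22 from 400 to 499, -0.10 for 15 from 500 to 649, and -0.02 for 15 of 650 or more. Across the 81 genes, which share the same 6 libraries and are not independent, Pearson's r between coding length and log2 fold change was 0.42 and Spearman's rho 0.55. With 1 library left out r ran from 0.17, without Ni replicate 1, to 0.53, without Ni replicate 2, and rho from 0.40 to 0.61.

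The shortest genes did not divide by group. Their median deviation from each gene's own mean log2 CPM was -0.19, 0.72 and 0.40 in Con and -0.73, 0.45 and -0.66 in Ni. Con replicates 2 and 3 and Ni replicate 2 were thus high, and Con replicate 1 and Ni replicates 1 and 3 low, and 0 of the 11 genes passed an unadjusted p of 0.05. Rps29 had counts of 783, 2100 and 1464 in Con and 453, 2213 and 520 in Ni. In the genes of 300 to 399 bases, which include 7 of the 8 called at an unadjusted p under 0.05, the deviations were 0.04, 0.28 and 0.07 in Con and -0.16, -0.05 and -0.14 in Ni. Other protein-coding genes under 300 coding bases (226 tested) had deviations of -0.04, 0.10 and 0.11 in Con and -0.10, 0.09 and -0.10 in Ni, the same libraries high and low over a smaller range. Their median log2 fold change was -0.11, and 28 were lower and 8 higher at an unadjusted p under 0.05. Of the other protein-coding genes with 300 to 399 coding bases (364 tested), 40 were lower and 12 higher, with a median of -0.07. A lean to lower values was thus also present in short genes outside the ribosomal class. What sets this pattern was not tested.

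**Figure D3:**
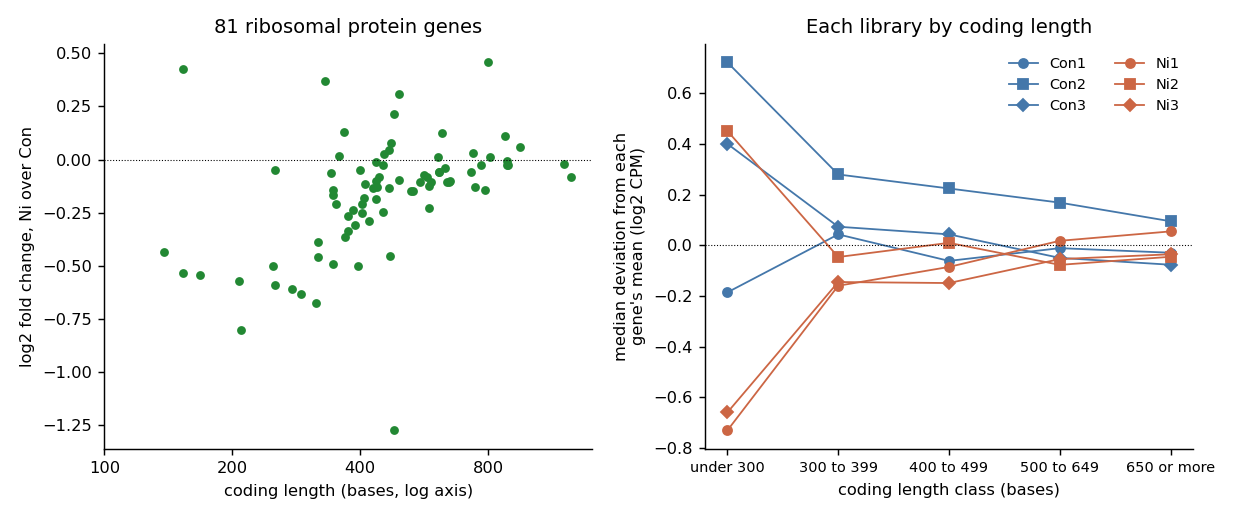
Left, log2 fold change of Ni over Con against coding length in bases (log axis) for 81 ribosomal protein genes (points). Right, median deviation from each gene's mean (log2 CPM) in each of the 6 libraries (lines) for 5 classes of coding length; under 300 bases the libraries spread from -0.73 to 0.72 with both groups on either side of 0, and at 650 bases or more they lie close to 0.

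Among the pseudogenes, Rps18-ps3 (chr8:107262793-107263248) stood out upwards. It read 20.8, 18.4 and 18.1 CPM in Con and 63.3, 36.0 and 50.9 CPM in Ni, so the lowest Ni library was well above the highest control. Its log2 fold change was 1.39 (SE 0.19, unadjusted p = 3.57e-05, adjusted p = 0.185), the highest of the 142 members. Its adjusted p was 3.43e-08 with DESeq2 and 0.00327 by edgeR without Con replicate 3. The parent Rps18 was at 10.7, 17.9 and 15.6 CPM in Con and 11.9, 20.6 and 12.4 CPM in Ni. The largest count in each library lay on Gm11361, another copy on chromosome 13 annotated as protein-coding, at 74.0, 126 and 91.2 CPM in Con and 64.2, 104 and 62.7 CPM in Ni. Summed over Rps18 and the 7 genes that share 100-base stretches with it, the family had 131 ± 28.9 CPM in Con and 142 ± 17.3 CPM in Ni, and the groups overlapped. The separation of the groups was thus found in the counts of Rps18-ps3 and not in the sum of the family.

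Rps2-ps13 (chrX:52898588-52899469) was the other abundant pseudogene to read higher. It had 97.6, 115 and 119 CPM in Con and 158, 162 and 139 CPM in Ni, without overlap (log2 fold change 0.47, SE 0.11, adjusted p = 0.224). The parent Rps2, a core protein of the small subunit, had only 17.9 ± 3.51 CPM in Con and 19.3 ± 1.64 CPM in Ni. Rps2-ps10 carried most counts of the family, at 212, 276 and 257 CPM in Con and 249, 352 and 221 CPM in Ni, and its groups overlapped. With the parent and all 35 sharing genes the family summed to 387 ± 46.1 CPM in Con and 457 ± 82.6 CPM in Ni, which also overlapped. Rpl17-ps5 had 160, 154 and 141 counts in Con and 328, 174 and 289 in Ni (log2 fold change 0.70, SE 0.21). Ni replicate 2 was barely above the controls, and every 100-base stretch of Rpl17-ps5 is shared with another gene.

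The 9 pseudogenes that read lower at an unadjusted p under 0.05 included some of the largest. Rpl34-ps1, the pseudogene of highest CPM, read 408, 404 and 382 CPM in Con and 341, 298 and 307 CPM in Ni (log2 fold change -0.33, SE 0.10). Its parent Rpl34 had 56.9 ± 3.82 CPM in Con and 49.3 ± 2.33 CPM in Ni and did not overlap either. The whole Rpl34 family summed to 459 ± 15.5 CPM in Con and 370 ± 26.1 CPM in Ni, every Ni library being below every control, so here the copy, the parent and the sum lay on the same side. Rpl14-ps1, which shares stretches only with Rpl14, read 89.2, 89.8 and 80.7 CPM in Con and 65.6, 63.8 and 68.0 CPM in Ni (log2 fold change -0.40, SE 0.09, adjusted p = 0.222). Rpl14 itself was at 318, 375 and 319 CPM in Con and 320, 331 and 292 CPM in Ni, with overlapping groups.

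Rps26-ps1 (log2 fold change -0.33) and its parent Rps26 both lay lower in every Ni library. Rpl21-ps15 (-0.32), Rps24-ps3 (-0.73), Rpl32-ps (-0.74, 24 to 55 counts per library) and Rpl17-ps3 (-0.25) were also lower at an unadjusted p under 0.05. Rpl32-ps shared no 100-base stretch with any other gene.

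Other extreme pseudogenes had overlapping groups. Rpl30-ps10 had 22, 362 and 70 counts in Con and 161, 33 and 17 in Ni, and its log2 fold change of -1.27 became 0.53 without Con replicate 2. Rps25-ps1 was at -0.93. Rpl38-ps2, whose sequence is identical to the Rpl38 coding sequence, was at -0.89, with 6.78, 23.7 and 18.3 CPM in Con and 3.80, 15.4 and 7.07 CPM in Ni. The libraries that were high for Rpl38 were high for this copy too. Rpl21-ps10 (0.76), Rpl7a-ps3 (0.60) and Rpl21-ps8 (0.56) stood at the upper end and did not reach an unadjusted p of 0.05. Rpl7a-ps3 was at -0.10 without Ni replicate 2.

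In 9 pairs the pseudogene had more counts than its own parent. These pseudogenes were Rpl34-ps1, Rps2-ps10, Rpl17-ps10, Rps2-ps13, Rps10-ps2, Rpl21-ps15, Rps18-ps3, Rpl35a-ps2 and Rps10-ps1. Rps10 was the extreme case. The gene itself held 29, 37 and 20 counts in Con and 22, 50 and 41 in Ni, whereas Rps10-ps2 had 70.3, 103 and 87.6 CPM in Con and 64.4, 113 and 70.0 CPM in Ni. The groups overlapped for parent and copy alike. Over the 59 pairs the log2 fold changes of pseudogene and parent had the same sign in 38, which describes pairs that may share reads. Most values were negative in both classes (38 of 59 pseudogenes and 65 of 81 coding genes), so unrelated pairs would often agree in sign too. Of the 59 pseudogenes, 24 overlapped another annotated gene, which the lack of a stated strand setting leaves uncertain as well.

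**Figure D4:**
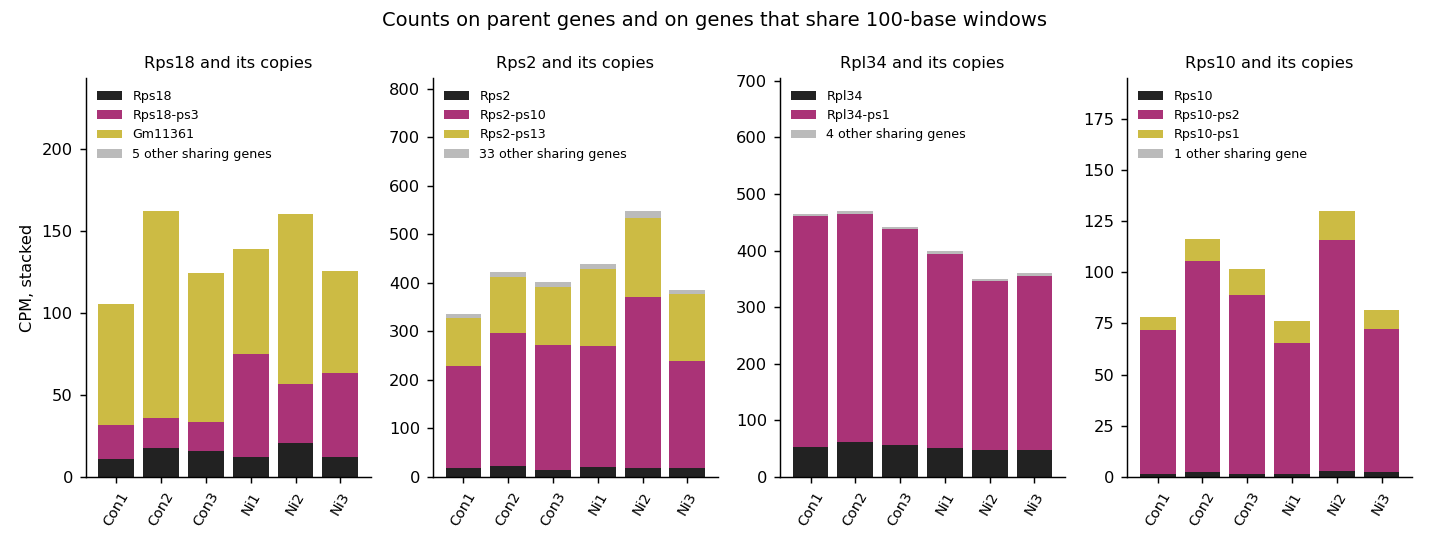
CPM in each library (stacked bars from 0) on 4 parent genes, on their main near-identical copies and on all other genes that share a 100-base stretch with the parent. The parents Rps18, Rps2, Rpl34 and Rps10 form the lowest and thin part of each bar, the share of Rps18-ps3 is larger in the 3 Ni libraries, and the Rpl34 family is lower in all 3 Ni libraries.

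Of 8 paralogs, 6 were tested. Rps4l, annotated as a transcribed processed pseudogene and not a member, read 12.3, 9.95 and 12.8 CPM in Con and 18.9, 14.4 and 15.1 CPM in Ni (log2 fold change 0.46, SE 0.16, unadjusted p = 0.0161), and the groups did not overlap. Rpl39l, a testis-enriched paralog of Rpl39, had 9.06 ± 3.61 CPM in Con and 12.2 ± 1.28 CPM in Ni. Rpl22l1, Rpl7l1 and Rps27l had log2 fold changes of 0.13, 0.03 and -0.05, and Rpl36al, at 7 to 21 counts per library, had -0.46 (SE 0.49). Rack1, a signalling scaffold on the small subunit (-0.04), Rps3a1 (0.07) and Fau, which encodes Rps30 behind a ubiquitin-like protein (-0.24), all failed the unadjusted test.

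Lists of the translation machinery were set beside the members as counts and medians. The first overlaps the members, and its lower calls are among those already given for the coding genes. Of the 20 ribosomal protein genes linked to Diamond-Blackfan anaemia, an inherited failure of red cell production, 4 were lower at an unadjusted p under 0.05 and 0 higher, with a median log2 fold change of -0.17. Of 77 mitochondrial ribosomal protein genes tested, 6 were lower and 0 higher, with a median of -0.08 and Ni wholly below Con in 14, where 6.71% of all genes lay wholly below. The other 22 TOP mRNAs had 0 lower and 0 higher with a median of -0.09, and 19 of them were negative. Of 37 initiation factors 1 was higher (median -0.03), of 8 elongation factors 0 were higher or lower (median -0.07), and of 61 ribosome biogenesis genes 1 was lower (median -0.02). The share of all genes lower at this level, 5.83%, is the background for these counts.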

How the data were processed

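RNA-seq libraries of mBMSCs (3 Con, 3 Ni) were grouped by the labels. The authors deposited raw counts per gene on GRCm38 (submitters' processing notes), FPKM values, which equal those counts divided by gene length and 1 factor per library, and an annotation table with other gene properties. The aligner, counter and strand setting are not given in the sources used here. No columns of the authors' own comparisons were used. Counts were filtered by filterByExpr, scaled by TMM and tested with edgeR 4.0.16 (glmQLFit, robust, glmQLFTest) in R 4.3.3. Alternatives were DESeq2 1.42.0, limma 3.58.1 on log2(FPKM + 1) and log2(FPKM + 0.1), other scalings and filters, libraries left out, and replicate number as a block. Fits that remove a gene-length trend used the authors' gene lengths, not the coding lengths, and were chosen after seeing the data. On simulated counts for Ni against Con over 14415 genes, 195 of them changed by 1.5 on the log2 scale, 85.6% were recovered and 6.70% of calls were false. The simulated libraries were independent, and the change was larger than the members' median absolute values of 0.13 and 0.27. These shares therefore do not say how often changes of the members' size would be found. Libraries of a group differed by more than sampling noise (chi-square at least 4.37 times its degrees of freedom). Totals of at least 16101033 counts limit precision only for members with few counts. Sequence sharing was computed on GENCODE M21 transcripts.

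The genes named are, in each class, the 10 of highest CPM, the 5 highest and 5 lowest fold changes, those at an unadjusted p under 0.05, the stalk proteins, paralogs, parents of named pseudogenes and ribosomal genes outside the name pattern. Rps27a, Rps29, Rps13, Rps23, Rpl32, the shortest genes and Gm11361 were named after their values were seen. Some items under this rule are not reported here. Members and lists were chosen with earlier results of these data known.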

Additional observations from a re-analysis of the deposited data

How the results depend on the processing

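Deviations of same-numbered libraries from their group means were weakly correlated (0.01, 0.26 and 0.14). Whether the replicate numbers pair the libraries is not settled by these values. With replicate number as a block, 20 coding genes and 16 pseudogenes were at an unadjusted p under 0.05 (18.9% of all genes, against 13.4% without it), and 6 (Rps26, Rpl37a, Rpl36, Rpl39, Rps27 and Rpl38, all lower) and 4 (Rps2-ps13 and Rps18-ps3 higher, Rpl38-ps2 and Rps24-ps3 lower) passed an adjusted p of 0.05, among 315 genes in all (2.15%). With this block combined with a correction for gene length, the coding genes numbered 19 at an unadjusted p under 0.05, and 6 coding genes and 2 pseudogenes passed the adjusted threshold (1.75% of all genes). With no filter on low counts 2 and 8 did (3.97%), and with DESeq2 0 and 3 (1.02%), both shares being of 25876 genes that include those of low counts. Leaving out 1 library gave from 4 (without Con replicate 2) to 24 (without Ni replicate 2) coding genes at an unadjusted p under 0.05. For the pseudogenes the range was from 7 (without Con replicate 2) to 19 (without Con replicate 3). The shares of all genes were 5.79% without Con replicate 2, 16.3% without Ni replicate 2 and 27.4% without Con replicate 3. At an adjusted p there were from 0 to 9 coding genes and from 0 to 8 pseudogenes, most without Con replicate 3, where 15.2% of all genes passed. The class medians and shares kept their sign under every alternative run and moved by less than 1 SD between libraries. With 1 library left out the coding median ran from -0.15 to -0.048, the pseudogene median from -0.22 to -0.025, the difference in coding share from -0.312 to -0.127, in pseudogene share from -0.0184 to -0.00547 and in pseudogene counts per 100 from 0.0615 to 0.242. The pseudogene median was -0.080 for those with at least 1000 counts. Among 36 members under the naming rule, 6 of 575 values changed sign: Rpl21 was at -0.05 without Con replicate 1 and ranged from -0.35 (without Ni replicate 2) to 0.87 (without Con replicate 3), Rpl35a turned to -0.011 and Rpl7a-ps3 to -0.10 without Ni replicate 2, Rpl7a to -0.22 without Ni replicate 1 and Rpl30-ps10 to 0.53 without Con replicate 2. The opposite ends for these were 0.53 for Rpl35a, 1.29 for Rpl7a-ps3, 0.73 for Rpl7a and -2.72 for Rpl30-ps10, each without another library. In 43 values a call was gained. The causes were not tested. Low counts (Rpl29, Rps10) limit precision. Rpl30-ps10 differed widely between libraries of a group (22, 362 and 70 counts in Con), with an SE of 1.24.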
